A study of Drosophila melanogaster with 159 samples.

Results

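The comparison set whole Drosophila melanogaster embryos of 13-16 h after egg laying against embryos of 10-13 h. It comprised 12 of the 159 arrays of a life-cycle series of 2-colour cDNA arrays, 60 of which were of embryos. The 6 arrays of 13-16 h were those titled embryo 13-14 h, 14-15 h and 15-16 h, and the 6 arrays of 10-13 h those titled embryo 10-11 h, 11-12 h and 12-13 h, with 2 arrays for each 1 h collection. All embryos were of the wild-type strain Canton S, were laid in 1 h collections at 25 °C, were staged by morphology, had their chorions removed and were frozen whole. Poly(A)+ RNA of each collection was hybridised against a common reference RNA whose makeup the labels do not describe. The labels do not say whether the 2 arrays of a collection came from separate collections of embryos, so the p-values rest on array-to-array spread alone, part or all of which may be technical. In RNA of whole embryos, a larger number of cells of a type and more RNA per cell cannot be told apart.

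By 10-13 h the fly embryo has retracted its germ band, most cell divisions have ended and the organs are taking shape. In the hours that follow, fused muscle fibres assemble sarcomeres, neurons extend axons and form synapses, and the epidermis and tracheae secrete a chitin-bearing cuticle that later hardens and darkens. Blood cells and fat body lay basement membrane around the organs over the same period.

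Each value is a log2 ratio of embryo RNA to reference RNA, centred on the median of its array, so a difference of 1 is a 2-fold change, and a low ratio says only that a transcript was scarcer than in the reference. The 12 arrays held 6722 to 8319 values each, and replicate arrays of a collection correlated at 0.861 to 0.903 across probes. Replicate 1 of every collection was on slides of one numbering (slide set A below) and replicate 2 on slides of another (slide set B), so that each window had 3 arrays per set. Within slide set B, arrays of different hours correlated at up to 0.955 (12-13 h with 13-14 h), above any replicate pair. In slide set A, 4 arrays, those of 10-14 h, were scanned on a scanner of another name than the rest. As a check of the tissue, defining markers with a tested probe included up, Prm and Mf for muscle, elav and nSyb for neurons, and repo and Gs2 for glia. Others were kkv and verm for cuticle-forming epidermis, and Pxn and PPO1 for blood cells. The testis genes Tektin-A, soti, vrs and Hsp60B also had values on these arrays, so a value alone does not show that a tissue is present. Tbp, the TATA-box binding protein, taken as a steady gene, had medians of 0.57 at 13-16 h and 0.88 at 10-13 h (difference -0.21 ± 0.15, SE; adjusted p = 0.367). Its means by collection were not flat, at 1.17, 0.88, 0.60, 0.56, 0.77 and 0.71 from 10-11 h to 15-16 h.

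The collections did not follow their labels in order. Each array was placed on a scale running, within its slide set, from 0 at the mean of 10-12 h to 1 at the mean of 14-16 h, over probes that differed between those hours (1249 in slide set A and fewer in slide set B). On this scale the arrays labelled 12-13 h, which belong to the 10-13 h window and did not set the scale, stood at 0.924 and 0.910, and those labelled 13-14 h at 0.748 and 0.728. The 12-13 h arrays thus stood within the range of the 14-16 h arrays (0.875 to 1.125 in set A, 0.925 to 1.075 in set B) or just under it, and ahead of the 13-14 h arrays in both slide sets. In each set the 12-13 h and 13-14 h arrays were the bottom and top arrays of a single slide. Whether a label, a slide position or the embryos themselves lie behind this order was not tested, and the count of calls and the counts of the gene lists are therefore given also without these 2 collections, as 14-16 h against 10-12 h.

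**Figure D1:**
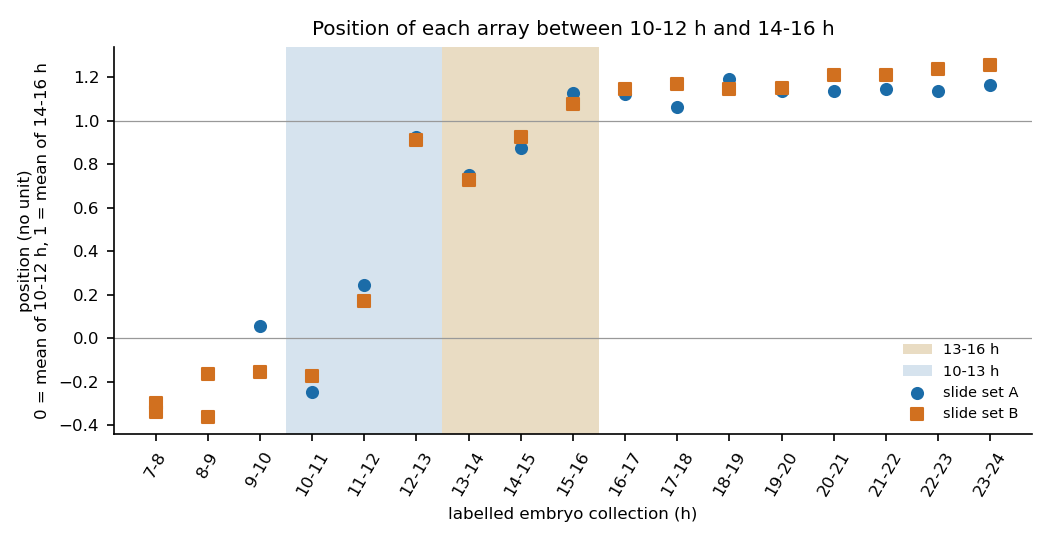
Position of each embryo array from 7 h on (points, slide sets A and B; no unit) against the hour of its collection, on a scale with 0 at the mean of 10-12 h and 1 at the mean of 14-16 h. The arrays of 12-13 h lie at 0.924 and 0.910, ahead of those of 13-14 h at 0.748 and 0.728, and the arrays after 16 h lie between 1.06 and 1.26.

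Taking the 2 windows as groups, with slide set as a term, 0 of 6521 probes passed an adjusted p of 0.05 in limma (Benjamini-Hochberg; lowest adjusted p 0.222), although 1189 probes, 18.2%, had an unadjusted p under 0.05, and 149 probes were at least 2-fold higher and 43 at least 2-fold lower at 13-16 h. In this test the spread is that among the 6 arrays of each window, over 3 collections. A second test gave every 1 h collection its own mean and took the spread from the 2 arrays of a collection. It asks whether these 6 collections differ on average, and it was chosen for naming genes after the first test had called none. It called 1217 of 6517 probes, 18.7%, of which 622 (9.54%) were higher and 595 (9.13%) lower at 13-16 h, and the median difference over all probes was -0.01. Without centring the arrays, which moved that median to 0.09, the calls were 669 higher and 264 lower. In what follows "rose" and "fell" refer to this second test, and differences are collection means of 13-16 h minus 10-13 h with their SE. Counts of a gene list are to be read against the shares of all probes, 9.54% rising and 9.13% falling. A test of a difference between the slide sets called 0 probes (limma; 114 probes, 1.75%, at an unadjusted p under 0.05).

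With the 12-13 h and 13-14 h arrays set aside, the window test itself called 1374 of 5803 probes, 23.7%, between 14-16 h and 10-12 h. Of these, 660 (11.4%) were higher and 714 (12.3%) lower, and list counts at 14-16 h against 10-12 h are to be read against these shares. In each slide set the 10-12 h arrays were the bottom and top of a single slide, as were the 14-16 h arrays of slide set B. In slide set A the 10-12 h and 14-16 h arrays differed in scanner name. Hour therefore cannot be told apart from slide in this comparison, nor from scanner in slide set A. The window test on these hours shared 945 of the 1093 calls of the second test that it could test, in the same direction. It was added after the data were seen and used arrays of the second test, so the overlap is not independent support. The calls also rested on the youngest collection: without the 10-11 h arrays the second test called 104 probes (82 higher, 22 lower). The 10-13 h window then held only the 11-12 h arrays and the 12-13 h arrays, which stood near those of 14-16 h. A call lost in this setting therefore does not place the change at 10-11 h alone. Of the 96 named genes, 20 kept their call. Of these, St3, St1, Actn, Exn, nAChRalpha2, dyl, Plod, Idh, pinta, CG2691, CG4702, tpr, HisT, JMJD7 and Fmo-1 rose, and PCNA, Ama, Gs2, CG5002 and CG10512 fell.

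The change was not spread evenly over the hours. By collection means, 360 probes (5.52%) passed between 11-12 h and 10-11 h, 237 (3.63%) higher and 123 (1.89%) lower. Another 423 (6.49%) passed between 12-13 h and 11-12 h, 313 (4.8%) higher and 110 (1.69%) lower. No probe passed between 13-14 h and 12-13 h (333, 5.11%, at an unadjusted p under 0.05), between 14-15 h and 13-14 h (223, 3.42%) or between 15-16 h and 14-15 h (274, 4.2%), all in limma. The steps that passed thus lay inside the 10-13 h window, and no hourly step within 12-16 h did. In both slide sets the steps to 12-13 h and to 14-15 h were also changes of slide, while those to 11-12 h and to 13-14 h lay within a slide. The step to 15-16 h changed slide in slide set A only. The part of the slide in these hourly counts was not tested.

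**Figure D2:**
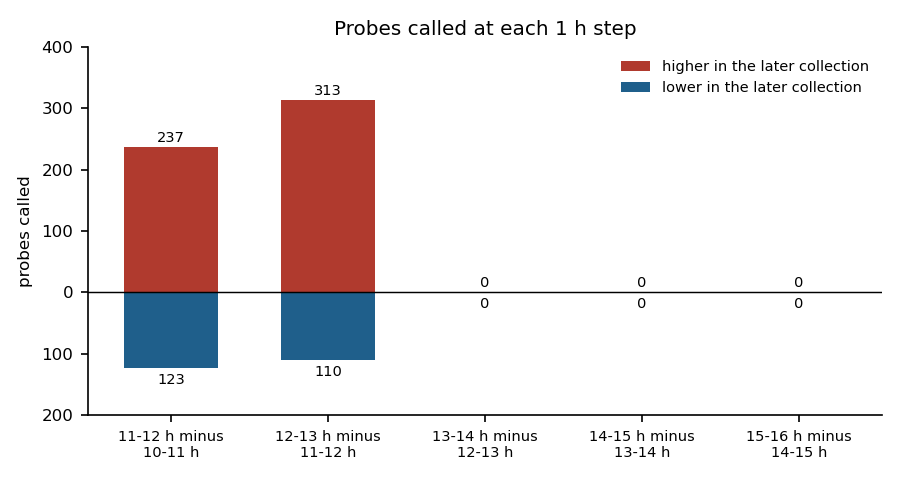
Number of probes called higher (upward) and lower (downward) in each step between neighbouring 1 h collections. The bars stand at 237 and 123 for 11-12 h, at 313 and 110 for 12-13 h, and at 0 for the later steps.

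The largest increases included 2 sulfotransferases, enzymes that add sulfate to small molecules. St3 lay at 0.97, 1.60 and 2.32 (lowest, median and highest) in the 13-16 h arrays and at -2.17, -0.62 and 1.57 in the 10-13 h arrays, a difference of 2.02 ± 0.17 (adjusted p = 1.02e-05). The high end of the 10-13 h range was the 12-13 h collection: the hourly means of St3 were -2.07, -0.62, 1.51, 1.27, 1.35 and 2.25 from 10-11 h to 15-16 h. St1 followed the same course, with hourly means of -1.30, -0.50, 1.97, 1.35, 1.54 and 2.65 (difference 1.79 ± 0.16, adjusted p = 1.59e-05). The other 8 of the 10 largest increases were CG2691 (1.92), CG4702 (1.89), tpr (1.85), HisT (1.83), CG9689 (1.75), the troponin gene up (1.68), JMJD7 (1.67) and Fmo-1, a flavin monooxygenase (1.64). All 10 were also higher at 14-16 h than at 10-12 h, by 2.06 to 3.15, and passed the window test there. The same arrays had served to choose these genes.

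The 10 largest decreases included genes of replication, nuclear import and axon growth. PCNA, the sliding clamp of DNA replication, lay at -0.33, -0.14 and 0.24 in the 5 arrays of 13-16 h with a value and at 0.10, 1.20 and 2.49 in the 10-13 h arrays (difference -1.30 ± 0.17, adjusted p = 0.000195). Pen, an importin alpha that carries proteins into the nucleus, lay at -2.87, -2.55 and -2.07 at 13-16 h and at -2.84, -1.20 and 0.42 at 10-13 h (-1.35 ± 0.15, adjusted p = 6.47e-05). Ama, the secreted immunoglobulin-domain protein Amalgam, which acts in axon growth, lay at -0.34, 0.92 and 1.64 at 13-16 h and at 0.80, 2.34 and 3.11 at 10-13 h (-1.39 ± 0.14, adjusted p = 2.98e-05). Its hourly means, 3.01, 2.34, 1.04, 1.30, 1.09 and -0.17, were lowest at 15-16 h. The other 7 were CG14464 (-1.58), Git, an adaptor of focal adhesions (-1.39), scpr-B (-1.27), CG5002 (-1.27), CG10512 (-1.16), CG10341 (-1.15) and CG4836 (-1.15). The ranges of the 2 windows did not overlap in 5 of the 96 named genes, CG10341, beat-Vb, Gs2, yellow-b and AkhR, nor in 36 of all 6521 probes (0.552%). In every other named gene they overlapped.

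**Figure D3:**
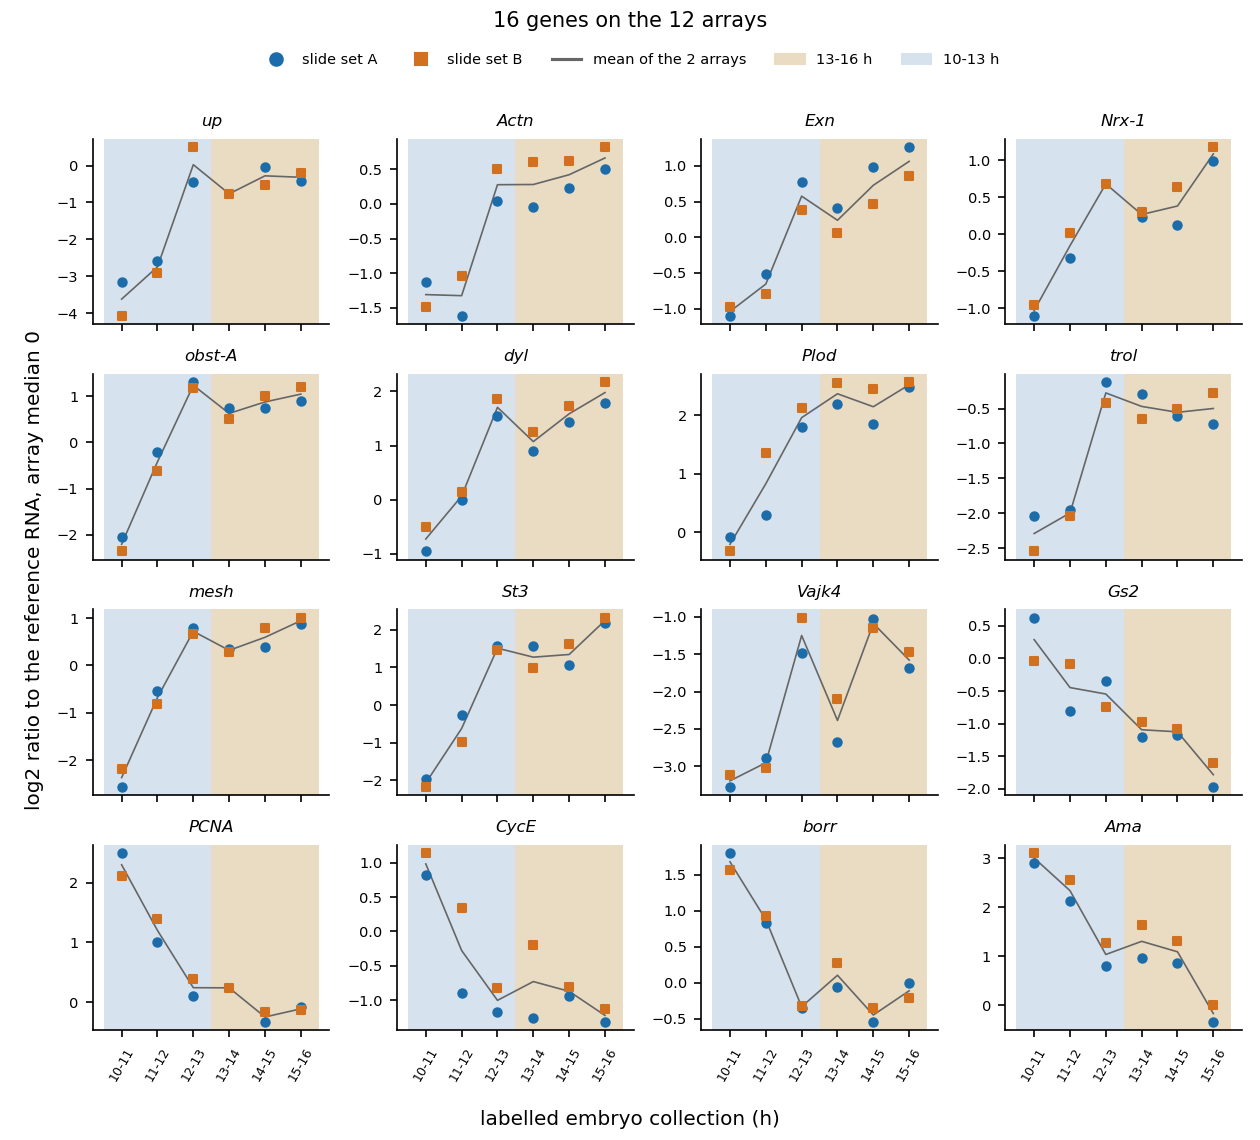
Log2 ratio to the reference RNA of 16 named genes on the 12 arrays (points, slide sets A and B; lines, mean of the 2 arrays of a collection), against the labelled hour, with the 13-16 h and 10-13 h windows shaded. The mean of up is -2.74 at 11-12 h and 0.02 at 12-13 h, that of PCNA 1.20 and 0.24, and the 12-13 h points of most panels lie level with those of 13-16 h.

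Contractile genes of muscle rose in part. Of 17 tested genes, 6 rose and 0 fell, against 9.54% and 9.13% of all probes, with a median difference of 0.25. At 14-16 h 6 of 15 were higher than at 10-12 h in the window test, against 11.4% of all probes. Without the 10-11 h arrays 1, Actn, rose. The gene up, which encodes troponin T of the thin filament, lay at -0.77, -0.43 and -0.04 in the 5 arrays of 13-16 h with a value and at -4.07, -2.75 and 0.51 at 10-13 h (1.68 ± 0.23, adjusted p = 0.000342). Its hourly means were -3.62 and -2.74 at 10-11 h and 11-12 h, 0.02 at 12-13 h, and between -0.76 and -0.28 over the next 3 collections. Actn, the alpha-actinin that cross-links thin filaments at the Z-disc, lay at -0.05, 0.56 and 0.83 at 13-16 h and at -1.62, -1.08 and 0.51 at 10-13 h (1.24 ± 0.16, adjusted p = 0.000142). CAP, a vinculin-binding adaptor, was higher by 0.78 ± 0.17 (adjusted p = 0.00679) and Prm, paramyosin of the thick filament, by 0.67 ± 0.16 (adjusted p = 0.00874). Strn-Mlck, a myosin light chain kinase of the titin family, rose by 1.12 ± 0.17 on one probe (adjusted p = 0.000469) and differed by -0.16 on another (adjusted p = 0.553).

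Other sarcomere genes did not pass. Mf, myofilin of the thick filament, differed by -0.02 ± 0.16 (adjusted p = 0.943), and the Z-disc genes Zasp66 and Zasp52 by -0.02 ± 0.20 and 0.32 ± 0.17, although Zasp52 was higher at 14-16 h than at 10-12 h by 0.75 (adjusted p = 0.026). For Mf, Zasp66, Zasp52 and Obsc, the M-line giant obscurin, the step to 17-20 h was larger than the step to 13-16 h by 3.07, 2.99, 1.93 and 2.20 (limma on all 4 windows of 7-20 h, adjusted p = 0.000128, 0.000412, 0.0095 and 0.000485), which makes 4 of 17 contractile genes against 2.84% of all probes. The 2 steps share the 13-16 h arrays, and the step to 17-20 h spans a longer time, as 16-17 h was left out. By hour, the median of the 17 genes relative to 10-12 h was 0.28, 0.42, 0.37 and 0.28 from 12-13 h to 15-16 h, 1.65 at 16-17 h and 2.31 at 19-20 h. Among 10 genes of myoblast identity and muscle attachment, 0 rose or fell in limma, with 2 at an unadjusted p under 0.05, and 0 of 7 passed at 14-16 h against 10-12 h in limma (1 at an unadjusted p under 0.05).

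**Figure D4:**
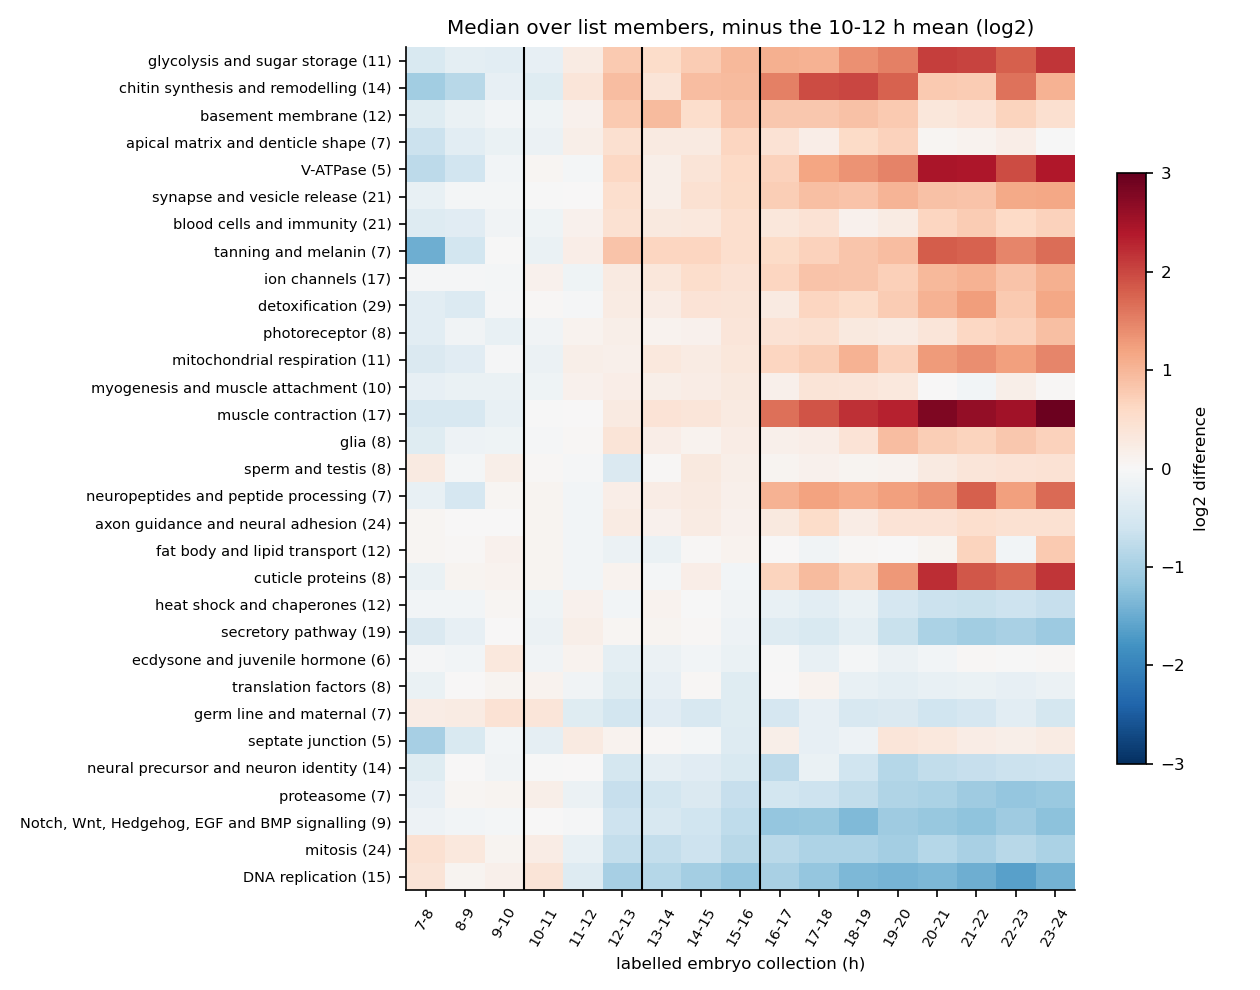
Median over the members of each gene list (rows, number of genes in brackets) of the log2 ratio minus its 10-12 h mean, by hour of collection (columns), as colour, with lines around the 10-13 h and 13-16 h windows. Contractile genes reach 0.28 to 0.42 at 12-16 h and 1.65 at 16-17 h, cuticle proteins lie between -0.08 and 0.20 at 12-16 h and reach 2.21 at 20-21 h, and DNA replication genes lie between -1.16 and -0.86 at 12-16 h.

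Genes of synapses and excitability rose in part, at modest size. Of 21 synaptic genes, 5 rose and 1 fell (median 0.24), against 9.54% and 9.13% of all probes. At 14-16 h 9 of 20 were higher and 1 lower than at 10-12 h, against 11.4% and 12.3% of all probes. Without the 10-11 h arrays 2 rose, Exn and nAChRalpha2. Exn, the guanine exchange factor Ephexin of the neuromuscular junction, lay at 0.06, 0.66 and 1.27 at 13-16 h and at -1.10, -0.66 and 0.78 at 10-13 h (1.05 ± 0.14, adjusted p = 0.000209). The acetylcholine receptor subunit nAChRalpha2 rose by 0.92 ± 0.17 (adjusted p = 0.00267) and nSyb, the neuronal synaptobrevin of synaptic vesicles, by 0.56 ± 0.15 (adjusted p = 0.0176). Nrx-1, the synaptic adhesion molecule neurexin, rose by 0.79 ± 0.16 (adjusted p = 0.00373) on one probe and differed by 0.16 on another (adjusted p = 0.71). Csp, a chaperone of synaptic vesicles, fell by 0.55 ± 0.16 (adjusted p = 0.0266), a call lost without centring and with quantile scaling. Vesicle-release genes such as unc-13, Rab3 and the calcium channel cac did not pass.

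Of 17 ion channel genes, 6 rose and 0 fell (median 0.31), against 9.54% and 9.13% of all probes. At 14-16 h 4 of 14 were higher than at 10-12 h, against 11.4% of all probes. None of these calls held without the 10-11 h arrays, and 3 rose with quantile scaling. The largest rise was that of stj, an alpha2delta subunit of voltage-gated calcium channels, at -0.88, 0.04 and 0.39 at 13-16 h and -1.71, -1.15 and -0.09 at 10-13 h (0.91 ± 0.15, adjusted p = 0.000938). The pacemaker channel Ih rose by 0.86 ± 0.21 (adjusted p = 0.0151, 4 arrays of 13-16 h with a value) and the chloride channel ClC-a by 0.87 ± 0.25 (adjusted p = 0.0261). Of the 5 arrays of 13-16 h with a value for ClC-a, that of 13-14 h stood at -1.34 and the others at -2.73 to -2.13. ClC-a did not pass at 14-16 h against 10-12 h in the window test (adjusted p = 0.0723). The ERG-type potassium channel sei rose by 0.78 ± 0.20 (adjusted p = 0.0198), with a value on 4 arrays of 10-13 h. The call of sei was lost with quantile scaling. For Best1, Irk2 and slo, a bestrophin, an inward rectifier and the calcium-activated potassium channel, the step to 17-20 h exceeded the step to 13-16 h by 1.19, 2.32 and 2.16 (adjusted p = 0.0194, 0.0079 and 0.0111). Of 7 neuropeptide genes 0 passed in limma (2 at an unadjusted p under 0.05). At 14-16 h 2 of 7 were higher than at 10-12 h, Mip and the prohormone convertase amon. For 2 others, Ms (myosuppressin) and Nplp1, the step to 17-20 h was the larger (by 1.84 and 1.23, adjusted p = 0.00874 and 0.036).

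Of 24 genes of axon guidance and neural adhesion, 3 rose and 2 fell (median 0.12), and 6 of 23 were higher and 2 lower at 14-16 h than at 10-12 h. Both shares of the second test lay near those of all probes (9.54% and 9.13%). Without the 10-11 h arrays only the fall of Ama held. The gene beat-Vb, of the Beaten path family of guidance molecules, rose without overlap, at -0.09, 0.14 and 0.56 at 13-16 h and -0.73, -0.19 and -0.11 at 10-13 h (0.48 ± 0.15, adjusted p = 0.0424). The immunoglobulin-domain gene dpr5 rose by 0.55 ± 0.16 (adjusted p = 0.0259), and the Toll-family receptor 18w fell by 0.58 ± 0.15 (adjusted p = 0.0166). The call of dpr5 was lost with quantile scaling and that of 18w without centring. Of 14 genes of neural precursors and neuron identity, 1 rose and 3 fell (median -0.22), and at 14-16 h against 10-12 h 1 was higher and 5 lower. None of the calls of this list held without the 10-11 h arrays. The forkhead factor jumu, which acts in neural precursor divisions, had hourly means of 1.02, 0.02, -1.04, -0.94, -0.80 and -1.25 from 10-11 h to 15-16 h (-0.99 ± 0.16, adjusted p = 0.000649), and the RNA-binding protein Imp fell by 0.66 ± 0.18 (adjusted p = 0.0216). The neuronal RNA-binding gene Rbp9 rose by 0.75 ± 0.17 (adjusted p = 0.00865). The transcription factor lola, a gene of many isoforms, fell by 0.60 on one probe (adjusted p = 0.0125) and rose by 0.62 on another (adjusted p = 0.0494). The pan-neuronal marker elav differed by -0.37 ± 0.17 (adjusted p = 0.136).

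Among 8 glial genes only Gs2 passed, and it alone of 5 passed at 14-16 h against 10-12 h. Gs2, a glutamine synthetase, lay at -1.97, -1.19 and -0.98 at 13-16 h and at -0.80, -0.22 and 0.62 at 10-13 h (-1.10 ± 0.18, adjusted p = 0.000932). Its ratio then averaged 0.25 at 17-20 h, and the step to 17-20 h exceeded the step to 13-16 h by 2.69 (adjusted p = 0.000513). The glial identity factor repo differed by 0.43 ± 0.18 (adjusted p = 0.115).

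Of 14 genes of chitin synthesis and remodelling, 7 rose and 0 fell (median 0.48), against 9.54% and 9.13% of all probes. At 14-16 h 5 of 11 were higher than at 10-12 h, against 11.4% of all probes. None of these calls held without the 10-11 h arrays. The chitin-binding protein obst-A, which organises the new cuticle, lay at 0.51, 0.82 and 1.20 at 13-16 h and at -2.35, -0.42 and 1.30 at 10-13 h (1.31 ± 0.15, adjusted p = 6.94e-05), with hourly means of -2.20, -0.42, 1.24, 0.63, 0.88 and 1.05. The related obst-B rose by 1.27 ± 0.18 (adjusted p = 0.000526; 4 arrays of 13-16 h with a value). The chitinase gene Cht7 rose by 1.03 ± 0.16 (adjusted p = 0.000673) and kkv, the chitin synthase of the cuticle, by 0.71 ± 0.15 (adjusted p = 0.00575). The chitin deacetylase verm lay at 1.03, 1.15 and 2.02 at 13-16 h and at -1.29, 0.93 and 1.60 at 10-13 h (0.96 ± 0.18, adjusted p = 0.00223). Its hourly means were -1.27 at 10-11 h and 1.15 to 1.53 from 11-12 h on, and its difference of 1.47 between 14-16 h and 10-12 h did not pass (adjusted p = 0.0784).

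Of 7 genes of the apical matrix and denticle shape, 1 rose, near the 9.54% of all probes. At 14-16 h 2 of 6 were higher than at 10-12 h, against 11.4% of all probes. The gene that rose was dyl, a zona pellucida domain protein of the apical matrix, at 0.90, 1.58 and 2.16 at 13-16 h and -0.95, 0.07 and 1.86 at 10-13 h (1.20 ± 0.13, adjusted p = 6.38e-05). Of 8 cuticle protein genes, 1 rose, near the 9.54% of all probes, and 0 fell (median 0.07). Without the 10-11 h arrays that call was lost. Between 14-16 h and 10-12 h 1 of 7 was higher and 1 lower, near the shares of all probes (11.4% and 12.3%). The gene that rose over the full windows, Vajk4, had hourly means of -3.20, -2.95, -1.25, -2.39, -1.09 and -1.58 (0.78 ± 0.15, adjusted p = 0.00248), with 0.30 on its other probe (adjusted p = 0.214), and averaged 2.67 at 17-20 h. For Vajk4, Cpr49Ae and Cpr50Cb the step to 17-20 h exceeded the step to 13-16 h by 3.57, 3.17 and 2.37 (adjusted p = 0.00266, 0.00283 and 0.000168). The same held for 2 genes of the chitin group, obst-E (4.71, adjusted p = 8.39e-05) and Idgf1 (2.73, adjusted p = 0.000734). The median of the cuticle protein genes relative to 10-12 h stayed between -0.08 and 0.20 from 12-13 h to 15-16 h, and was 0.67 at 16-17 h and 2.21 at 20-21 h.

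Of 7 tanning and melanin genes, 3 rose (median 0.38), against 9.54% of all probes. Of the 4 that could be tested at 14-16 h against 10-12 h 0 passed in limma (2 at an unadjusted p under 0.05). None of the 3 calls held without the 10-11 h arrays. The gene yellow-b rose without overlap, at 0.20, 0.40 and 1.06 in 4 arrays of 13-16 h and -1.86, -0.14 and 0.17 at 10-13 h (1.27 ± 0.18, adjusted p = 0.00045). Pu, the GTP cyclohydrolase that makes the cofactor of tyrosine hydroxylase, rose by 1.08 ± 0.23 (adjusted p = 0.00646; 4 arrays of 13-16 h with a value). PPO1, a prophenoloxidase of crystal cells, had hourly means of -0.13 at 10-11 h and 1.08 to 1.81 afterwards. Its difference of 0.50 ± 0.16 (adjusted p = 0.04) became -0.02 without the 10-11 h arrays. Ddc, the dopa decarboxylase of cuticle hardening, differed by -0.05 ± 0.20 (adjusted p = 0.893).

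Of 5 tested genes of septate junctions, the seals between epithelial cells, 2 rose and 1 fell (median -0.10), against 9.54% and 9.13% of all probes. The genes mesh and Ssk, which encode membrane proteins of the smooth septate junctions of the gut, rose by 1.39 ± 0.15 and 1.12 ± 0.16 (adjusted p = 4.08e-05 and 0.000266). The ratio of mesh lay at 0.29, 0.59 and 1.00 at 13-16 h and at -2.56, -0.68 and 0.78 at 10-13 h. The claudin sinu of the pleated septate junctions of ectodermal epithelia lay at 0.15, 0.34 and 0.87 at 13-16 h and at -0.13, 0.99 and 1.77 at 10-13 h, and fell by 0.55 ± 0.16 (adjusted p = 0.0288). That call was lost with quantile scaling and without centring, and without the 10-11 h arrays all 3 calls were lost. The same 3 genes passed, in the same directions, at 14-16 h against 10-12 h. The remaining tested members of the list, crim and scrib, did not pass.

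Most of the basement membrane genes rose. Of 12 tested genes, 7 rose and 0 fell, against 9.54% of all probes rising, with a median of 0.57. At 14-16 h against 10-12 h 5 were higher and 1, the collagen gene Mp, lower. Without the 10-11 h arrays 1, Plod, rose. Plod, the lysyl hydroxylase that modifies collagen IV before secretion, lay at 1.85, 2.46 and 2.56 at 13-16 h and at -0.32, 0.83 and 2.13 at 10-13 h (1.48 ± 0.17, adjusted p = 6.94e-05), with hourly means of -0.20, 0.83, 1.96, 2.37, 2.15 and 2.52. The perlecan gene trol lay at -0.72, -0.55 and -0.27 at 13-16 h and at -2.55, -1.99 and -0.13 at 10-13 h (1.01 ± 0.16, adjusted p = 0.000596). Ndg, nidogen, rose by 1.06 ± 0.20 (adjusted p = 0.00222) and the matrix protease Mmp2 by 0.91 ± 0.15 (adjusted p = 0.00106). Dg, Ppn and Timp, which encode dystroglycan, papilin and a metalloprotease inhibitor, were the other 3. The hemocyte peroxidasin Pxn of the same list differed by 0.33 ± 0.30 (adjusted p = 0.49).

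Of 21 genes of blood cells and immunity, 6 rose and 0 fell (median 0.19), against 9.54% and 9.13% of all probes. At 14-16 h 7 of 18 were higher and 2 lower than at 10-12 h, against 11.4% and 12.3% of all probes. None of these rises held without the 10-11 h arrays. Serpins were 3 of the 6, as protease inhibitors of the body fluid, and the largest rises were those of Spn100A (1.18 ± 0.18, adjusted p = 0.000635), the peptidoglycan recognition gene PGRP-LA (1.18 ± 0.16, adjusted p = 0.000266) and Spn88Ea (1.12 ± 0.16, adjusted p = 0.000379). NimB4, a Nimrod-family gene, rose by 0.97 ± 0.14 (adjusted p = 0.000399). The blood cell factor srp, a GATA factor, did not pass. The part that a change in the number of blood cells had in these values or in those of the basement membrane was not tested.

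Of 15 replication genes, 0 rose and 10 fell, against 9.13% of all probes, with a median of -0.63, and 11 of 15 were lower at 14-16 h than at 10-12 h. Without the 10-11 h arrays 1, PCNA, fell. Beside PCNA, Orc4 of the origin recognition complex lay at -1.25, -0.56 and -0.23 at 13-16 h and at -0.60, 0.22 and 1.35 at 10-13 h (-0.90 ± 0.14, adjusted p = 0.000528). Cyclin E, CycE, which drives entry into S phase, fell by 0.84 ± 0.18 (adjusted p = 0.0047). Orc2, Mcm6, Cdc45, RfC4 and Rbf, of the origin, the replicative helicase, the clamp loader and the retinoblastoma family, fell as well. Of 24 mitotic genes, 11 fell and 1 rose (median -0.41), as did 11 and 1 of 22 at 14-16 h against 10-12 h, and none of these calls held without the 10-11 h arrays. The chromosomal passenger gene borr lay at -0.55, -0.14 and 0.27 at 13-16 h and at -0.35, 0.88 and 1.80 at 10-13 h (-0.89 ± 0.14, adjusted p = 0.000744). Cap-D2 of condensin fell by 0.81 ± 0.14, pbl, the exchange factor of the cleavage furrow, by 0.80 ± 0.14, and dgt5, of the augmin complex of the spindle, by 0.81 ± 0.16 (adjusted p = 0.00114, 0.00117 and 0.00358). The 1 that rose, the kinesin Klp68D (0.65 ± 0.18, adjusted p = 0.0249), is known as a transport motor of axons. Without centring, 7 replication and 7 mitotic genes fell.

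**Figure D5:**
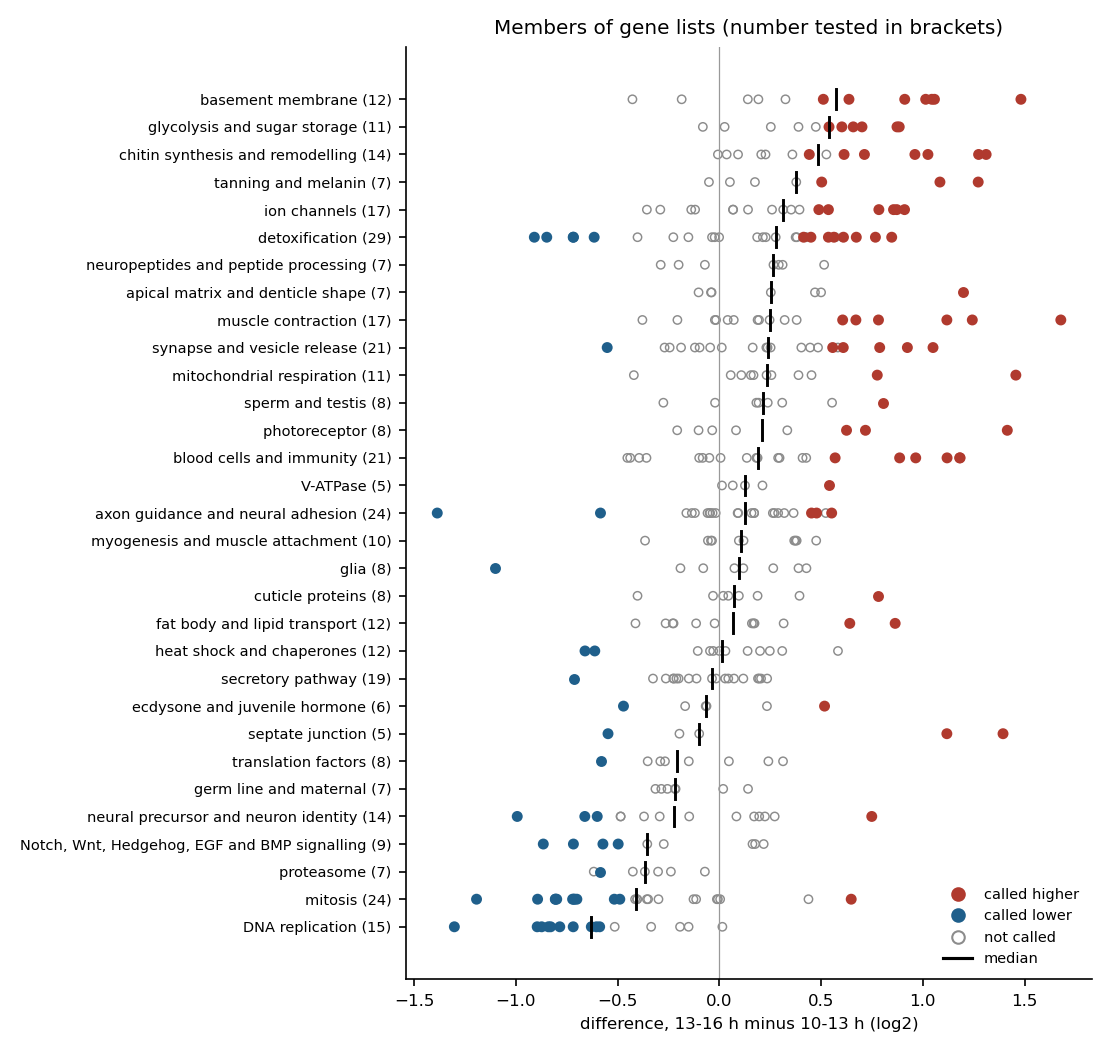
Difference of 13-16 h minus 10-13 h (log2, collection means) for every tested gene in lists with at least 5 tested genes, where filled points passed an adjusted p of 0.05 and black lines mark the median of the list. Basement membrane, glycolysis and chitin genes lie mostly to the right of 0, with medians of 0.57, 0.54 and 0.48, and replication and mitosis genes to the left, with medians of -0.63 and -0.41.

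Genes of patterning signals fell where they passed. Of 9 tested genes of Notch, Wnt, Hedgehog, EGF and BMP signalling, 0 rose and 4 fell (median -0.35), against 9.13% of all probes falling. At 14-16 h 4 of 8 were lower than at 10-12 h, against 12.3% of all probes. None of these calls held without the 10-11 h arrays, and 2 genes fell without centring. The Notch pathway gave 3 of them. The ubiquitin ligase neur, needed for Delta signalling, lay at -0.05, 0.02 and 0.36 at 13-16 h and at -0.02, 0.84 and 2.08 at 10-13 h (-0.87 ± 0.16, adjusted p = 0.00242). The Notch target E(spl)mbeta-HLH fell by 0.72 ± 0.18 (adjusted p = 0.014) and O-fut1, the fucosyltransferase of the receptor, by 0.57 ± 0.15 (adjusted p = 0.0162). The BMP receptor tkv fell by 0.50 ± 0.14 (adjusted p = 0.026). The calls of O-fut1 and tkv were lost without centring, and that of tkv also with quantile scaling. Of 6 genes of ecdysone and juvenile hormone, the nuclear receptor Hr3 rose by 0.52 ± 0.14 (adjusted p = 0.0174), and its other probe by 0.48 (adjusted p = 0.0376). The insulin-binding protein ImpL2 fell by 0.47 ± 0.13 (adjusted p = 0.0261), a call lost without centring and with quantile scaling. At 14-16 h against 10-12 h ImpL2 alone of the 6 passed, also lower, and neither call held without the 10-11 h arrays.

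Genes of glycolysis rose in part. Of 11 genes of glycolysis and sugar storage, 6 rose and 0 fell (median 0.54), against 9.54% of all probes rising. At 14-16 h 5 of 9 were higher than at 10-12 h, against 11.4% of all probes. With quantile scaling 3 rose, and without the 10-11 h arrays none did. Tpi, the triose phosphate isomerase, lay at -0.68, 0.39 and 0.90 at 13-16 h and at -1.54, -0.73 and 0.61 at 10-13 h (0.88 ± 0.16, adjusted p = 0.00216). The aldolase Ald1 rose by 0.87 ± 0.15 (adjusted p = 0.00143) on one probe and differed by 0.29 on another (adjusted p = 0.279). Pglym78, a phosphoglycerate mutase, and Pgi, the glucose phosphate isomerase, rose by 0.70 ± 0.18 and 0.66 ± 0.18 (adjusted p = 0.015 and 0.0254), the call of Pgi being lost with quantile scaling. Of 11 mitochondrial genes, 2 rose (median 0.23), and 2 of 8 were higher at 14-16 h than at 10-12 h. Idh alone rose without the 10-11 h arrays. The isocitrate dehydrogenase Idh lay at 0.69, 0.92 and 1.09 at 13-16 h and at -2.25, -0.64 and 0.99 at 10-13 h (1.46 ± 0.16, adjusted p = 5.65e-05), and Mtpbeta of fatty acid oxidation rose by 0.78 ± 0.18 (adjusted p = 0.0123). Among 12 fat body genes, the adipokinetic hormone receptor AkhR rose by 0.64 ± 0.18 (adjusted p = 0.0253) and the haemoglobin-like glob1 by 0.86 ± 0.24 (adjusted p = 0.0261). Both fat body calls were lost with quantile scaling and without the 10-11 h arrays. Of the 10 tested at 14-16 h against 10-12 h, 2 were higher and 1 lower.

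In the lists of 3 ribosomal protein, 8 translation factor and 7 proteasome genes, 1 each fell. RpLP0-like, by its name only like a ribosomal protein, fell by 0.86 ± 0.19 (adjusted p = 0.00711). The fall of eIF6, a factor of large ribosomal subunit assembly, was 0.58 ± 0.17, and that of the proteasome activator REG 0.59 ± 0.14 (adjusted p = 0.0264 and 0.00988). The call of eIF6 was lost without centring and with quantile scaling, and none of the 3 held without the 10-11 h arrays. At 14-16 h against 10-12 h 1 of 3, 1 of 6 and 3 of 5 genes of these lists were lower, the proteasome genes being REG, Prosalpha5 and Rpn5. Of 12 chaperones, 2 fell, against 9.13% of all probes, among them the small heat shock protein Hsp27 (-0.66 ± 0.18, adjusted p = 0.0181). At 14-16 h against 10-12 h 1 of 11 was lower and 1 higher, near the shares of all probes. Of 19 genes of the secretory pathway, 1 fell (median -0.04), and 0 of 16 passed at 14-16 h against 10-12 h in limma (2 at an unadjusted p under 0.05). None of these falls held without the 10-11 h arrays. In the detoxification list 8 of 29 genes rose and 5 fell (median 0.28), against 9.54% and 9.13% of all probes. Of the 25 tested at 14-16 h against 10-12 h, 8 were higher and 3 lower, against 11.4% and 12.3% of all probes. With quantile scaling 3 rose and 4 fell, and none of these calls held without the 10-11 h arrays. The glutathione transferase GstE1 rose by 0.85 ± 0.14 (adjusted p = 0.000877), and the cytochromes P450 Cyp6g1, Cyp6a8 and Cyp4c3 fell by 0.85 ± 0.16, 0.72 ± 0.15 and 0.91 ± 0.20 (adjusted p = 0.00264, 0.0047 and 0.00723). Cyp4c3 then averaged -0.39 at 17-20 h, and its step to 17-20 h exceeded the step to 13-16 h by 3.35 (adjusted p = 0.00467).

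Lists of other tissues were also counted, against 9.54% of all probes rising and 11.4% higher at 14-16 h than at 10-12 h. Of 8 photoreceptor genes, 3 rose, as did 3 of 7 at 14-16 h against 10-12 h: pinta, a retinoid-binding protein, lay at -0.52, 0.56 and 1.97 at 13-16 h and at -2.19, -1.25 and 1.06 at 10-13 h (1.42 ± 0.14, adjusted p = 3.26e-05), and the carotenoid cleavage enzyme ninaB and the blue-light receptor cry rose by 0.72 ± 0.15 and 0.63 ± 0.16 (adjusted p = 0.00541 and 0.0139). Of 8 genes of sperm and testis, Tektin-A rose by 0.80 ± 0.18 (adjusted p = 0.00646) and passed at 14-16 h against 10-12 h as 1 of 8. Both counts lie near the shares of all probes. Of 7 germ line genes 0 passed in limma, also at an unadjusted p under 0.05, and 1 of 5 was lower at 14-16 h than at 10-12 h. Of 5 V-ATPase genes Vha55 rose, by 0.54 ± 0.16 (adjusted p = 0.0357), a call lost with quantile scaling, and 1 of 2 was higher at 14-16 h than at 10-12 h. Without the 10-11 h arrays pinta alone among these kept its call.

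The step to 13-16 h was then set beside its neighbours in 1 fit over 6631 probes on 24 arrays, with windows of 7-10 h, 10-13 h, 13-16 h and 17-20 h that share arrays from step to step. As 16-17 h was left out, the step to 17-20 h spanned a longer time than the others. Of the 7-10 h arrays only replicate 1 of 9-10 h was of slide set A. The 10-13 h window also held the 12-13 h arrays, which stood near those of 14-16 h. The counts of the steps are therefore not like for like. The step to 10-13 h called 1024 probes (15.4%; 594, 8.96%, higher and 430, 6.48%, lower), the step to 13-16 h 33 (0.498%; 16, 0.241%, higher and 17, 0.256%, lower) and the step to 17-20 h 1596 (24.1%; 979, 14.8%, higher and 617, 9.3%, lower). The difference between the step to 13-16 h and the one before it passed for 0 probes (limma; 510, 7.69%, at an unadjusted p under 0.05). The step to 17-20 h differed from the step to 13-16 h for 265 probes (4.0%), 188 (2.84%) of them in the upward and 77 (1.16%) in the downward direction. That upward majority was not kept without the 12-13 h and 13-14 h arrays, where 316 probes differed, 151 upward and 165 downward. Several of the largest increases of 13-16 h turned at 17-20 h: St1 averaged 0.66 and CG4702 0.77 there, against 1.85 and 2.88 at 13-16 h, and their steps differed by -2.98 and -3.99 (adjusted p = 0.0457 and 0.03). The step of CG9689 differed by -3.09 (adjusted p = 0.0155) and that of Spn100A by -2.79 (adjusted p = 0.00225).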

How the data were processed

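The values are log2 ratios deposited by the authors as one table over all 159 arrays; how they were made before deposit is not given in the sources used here. Per the labels, channel 2 held the embryo RNA and channel 1 the reference, and the comments of some arrays name the ratio as sample over reference; the same direction was taken as likely for the others, and no 2 arrays correlated below -0.264 over all probes. Values above 16 (3 on the 12 arrays) were set to missing, each array was centred on its median, and probes with a value on at least 80% of the arrays of a fit were tested in limma 3.58.1 (R 4.3.3), with slide set as a term and Benjamini-Hochberg adjustment at 0.05. Means were fitted for the windows, which is the main test, or for every 1 h collection.

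Slide set equals the replicate number in these arrays. Deviations of same-numbered arrays from their collection means correlated at 0.039 to 0.524 (median 0.362; 15 pairs of collections, 4725 probes), and the labels do not say that a number marks a shared batch other than the slide form.

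Of 12588 probes, 4137 have a single gene name in the platform annotation, 159 have several and 8292 none; 4089 of the names were found in the RefSeq gene table, and probes without a single name were counted but not named. A gene with several probes is represented by the probe that has the most values. The members of the comparison and 36 gene lists were chosen with earlier results of these data known. Named genes are the 10 largest increases and decreases that passed and kept their sign in both slide sets, and up to 4 passing genes of each list with at least 3 tested members, lowest adjusted p first. The rule was applied to collection means after window means had called none. Other list members are named where a count of the list is spelled out or where their step to 17-20 h differed, chosen after their values were seen. The salivary gland and yolk lists had no named probe. The fits were tested on simulated data first. Alternatives covered centring, quantile scaling, missing values, probes of a gene averaged, slides as blocks, scanner (for window means only), and leaving out each array. No sequences were used here, and array number limits the precision.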

Additional observations from a re-analysis of the deposited data

Results flagged for a closer look

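Among 192 sets of arrays (a named gene in a window), 5 had an array far from the others of its set, where chance alone flags about 1 in 20. The gene 18w stood at 2.05 on replicate 1 of 10-11 h, above the other arrays of 10-13 h. Within 13-16 h, Pu stood at -0.23 and Vha55 at -0.64 on replicate 1 of 13-14 h, both below the others, neur at 0.36 on replicate 2 of 13-14 h, above the others, and PPO1 at 1.71 on replicate 1 of 14-15 h, above the others.

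The step to 17-20 h differed from the step to 13-16 h for 265 probes in limma. Among the named genes the later step was the larger for Vajk4 (by 3.57), Cyp4c3 (by 3.35) and Gs2 (by 2.69). It was lower for CG4702 (-3.99), CG9689 (-3.09), St1 (-2.98) and Spn100A (-2.79).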

How the results depend on the processing

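The count of 0 probes by window means also held for scaling, missing values, slide blocks, scanner, either slide set alone and no replicate block; leaving out 1 array gave 0 to 188, the highest without 12-13 h replicate 2. It became 2 without 13-14 h, 1726 without 12-13 h, 1374 without both, 1217 with a mean for every collection and 1811 with hour as a number. With scanner as a further term, 524 probes had an unadjusted p under 0.05 by window means in limma, against 1189 in the main fit. A count already at 0 cannot show how calls depend on the scanner. Collection means were not fitted with a scanner term, so the part of the scanner in those calls was not tested. By collection means, with the replicate block of slide set as a term, 1217 probes passed; without the replicate block 780 did (436 higher, 344 lower). Leaving out 1 array gave 643 to 1727, and the counts more than 1.5 times lower were 643 without 15-16 h replicate 1, 696 and 729 without replicates 1 and 2 of 14-15 h, and 766 without 13-14 h replicate 1. The count was 1853 without both doubted collections, 2112 without 12-13 h and 104 without 10-11 h. Fits of collection means in 1 slide set alone were not run, since each collection then has 1 array.

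The 0 probes whose step to 13-16 h differed from the step before became 1 without centring, 1 with quantile scaling, 11 with a mean for every collection, 52 without 12-13 h, 78 without both and 154 without 10-11 h, and 0 to 4 on leaving out 1 array (4 without 9-10 h replicate 1). The 265 probes whose step to 17-20 h differed became 169 without centring, 485 with quantile scaling, 173 with a value on every array, 8 in slide set A alone, 52 in slide set B alone, 481 with a mean for every collection, 530 without 12-13 h and 94 without 13-14 h. Leaving out 1 array gave 158 to 308, and 158 and 171 were without replicates 1 and 2 of 13-14 h. Probes whose change differed between slide sets numbered 0 to 3 on leaving out 1 array, 3 without 12-13 h replicate 2. PPO1 reversed to -0.022 without 10-11 h by both means. Of 5181 values of named genes under alternatives, 4525 kept their sign and side of the threshold, 256 lost their call (74 without 10-11 h) and 398 gained one. The remaining 2 were the reversed values of PPO1. The causes were not tested. Fewer arrays leave larger errors, and the median SE was 0.207 by window means and 0.167 by collection means.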

Other observations

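Several groups described above held single genes whose ratio at 13-14 h lay back towards the 11-12 h value after a shift at 12-13 h. The mean of Vajk4 was -2.95 at 11-12 h, -1.25 at 12-13 h and -2.39 at 13-14 h, that of the gut junction gene Ssk -0.16, 1.04 and 0.24, and that of pinta -1.31, 0.93 and -0.08. Among genes that fell, the P450 gene Cyp6a8 gave 0.39, -1.32 and -0.55 and ImpL2 2.02, 0.87 and 1.54. These genes were picked after their values were seen, and no difference between 13-14 h and 12-13 h passed the test.

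In the apical matrix list, the zona pellucida domain gene neo differed by 0.50 ± 0.21 between 13-16 h and 10-13 h (adjusted p = 0.118), and its step to 17-20 h was lower than its step to 13-16 h by 1.84 on the log2 scale (adjusted p = 0.0273, limma). Relative to 10-12 h, the median of 5 V-ATPase genes and of 7 tanning genes was higher at 20-21 h than at any hour of 13-16 h, as the colour map of list medians shows.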
